A study of Drosophila melanogaster with 4 samples.

Results

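Antisense start sites inside gene bodies are positions called as starts of capped nascent RNA on the strand opposite to the gene around them. Members came from either list of called starts. The centre of a member lay inside an opposite-strand row of the gene table and inside no same-strand row. It also lay more than 500 bp from the 5' end of every row, on either strand. This gave 1215 of the 16169 called sites: 493 of 6782 (7.27%, 95% exact Clopper-Pearson interval 6.66 to 7.91%) in replicate 1 and 722 of 9387 (7.69%, 7.16 to 8.25%) in replicate 2. Each such gene is called a host below. The rule used positions only. The gene table holds 1 transcript per gene, so starts of other transcripts of a gene were not excluded and may lie at a member. No sequence is printed because no dm3 genome was used here.

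All libraries came from Drosophila S2 cells, an established line with features of fly blood cells (hemocytes), labelled as derived from embryos of 20 to 24 h. They comprised 2 libraries of 5'GRO-seq, which captures capped run-on RNA and so marks starts, and 2 of GRO-seq, which captures all run-on RNA and reports engaged polymerase per gene. The labels give no treatment or genotype beyond the line, the groups differ only in assay, and the labels do not say whether replicates were separate cultures. The GRO-seq libraries are named Sample3 and Sample4 after the columns, which carry no replicate number.

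The 5'GRO-seq libraries held 13979543 and 6710787 reads, of which 36.87% and 20.89% fell in called sites, per the file headers. Filtering by local signal removed 842 putative peaks in replicate 1 and 4127 in replicate 2. Sites within 500 bp of a row's 5' end made up 71.1% of the list of replicate 1 and 34.3% of that of replicate 2. GRO-seq was deposited as FPKM, reads scaled to gene span and library size, for 16612 rows. Over a gene of 10 kb, 1 FPKM stood for 65.7 reads in Sample3 and 24.7 reads in Sample4. Of the hemocyte markers found, 7 of 9 had at least 1 FPKM in both libraries, with Cg25C at 276 and 863 FPKM. The exceptions were NimC1, at 0.926 and 0.757 FPKM, and emp, at 1.62 and 0.854 FPKM. Of 12 markers of neuron, muscle, germline and fat body, 2 reached 1 FPKM in both libraries and 4 were listed at 0. The 2 were the neuronal elav, at 10.06 and 10.12 FPKM, and the germline bam, at 1.43 and 1.60 FPKM. The level of elav was above that of the hemocyte marker Pxn, at 2.84 and 3.59 FPKM.

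Transcription on the antisense strand of a gene is known from many eukaryotes. It can begin at a promoter of an unannotated gene, at an enhancer within an intron, where RNA is often made in both directions, or at the 3' end of a gene. Elongating polymerases on opposite strands of the same DNA run towards each other, and regulation by antisense RNA has been described at single fly genes.

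A core of 56 antisense sites was called in both lists within 5 bp. They made up 11.4% (8.70 to 14.5%) of the antisense sites of replicate 1 and 7.76% (5.91 to 9.95%) of those of replicate 2. Of these, 46 lay at the same base, and after one list was shifted by 1000 bp a single replicate 1 site still had a partner. Sites in both lists were spread over chromosomes, with 15 on 3R, 11 on X, 9 on 3L, 8 on 2R, 7 on 2L, 1 on 4 and 5 on heterochromatic or unplaced sequence. Intervals here and below cover counting error only.

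Relative to other sites away from 5' ends, the antisense sites recurred less often in replicate 1, and in replicate 2 they stood between the other classes. In replicate 1 the share found in the other list was 20.4% for sites in sense gene bodies (odds ratio 0.50, Fisher's exact adjusted p = 0.00097, and 0.110 in the leading 50% of the list in file order) and 23.7% for sites outside all rows (odds ratio 0.41, adjusted p = 1.1e-08). In replicate 2, whose list holds 3075 sense gene-body sites against 343 in replicate 1, the sense share was 2.28% (odds ratio 3.61, exact adjusted p = 2.8e-10). The share outside all rows was 11.3% (odds ratio 0.66, exact adjusted p = 0.011), a difference that did not pass among sites over 1000 bp from 5' ends (adjusted p = 0.057) or without rows over 100000 bp (adjusted p = 0.053). The test was a two-sided Fisher's exact test within each list, with Benjamini-Hochberg adjustment over 10 tests. The same 56 antisense and 70 sense sites are counted in both lists, so the odds ratios also follow the class sizes. Sites of a list come from a single library and are not replicates, so these p-values cover counting error only.

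**Figure D1:**
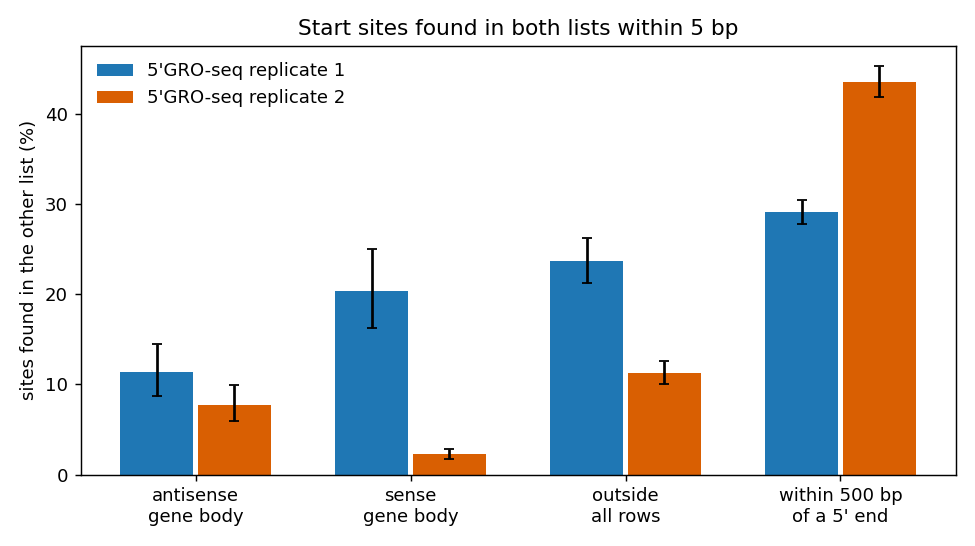
Share of start sites (%, vertical axis) found in the other list within 5 bp, for each class of sites and each 5'GRO-seq list; bars are shares and whiskers 95% exact Clopper-Pearson intervals. Antisense gene-body sites recurred at 11.4% and 7.76%, against 20.4% and 2.28% for sense gene-body sites. Sites within 500 bp of a 5' end recurred at 29.1% in replicate 1 and 43.6% in replicate 2.

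Counted by gene, hosts numbered 434 in replicate 1 and 535 in replicate 2, and 151 were hosts in both, 34.8% of the former and 28.2% of the latter. Of 13118 rows with any sequence open to the rule, 3.31% hosted a site in replicate 1, 4.08% in replicate 2 and 1.15% in both. In 55 of the 151 hosts the nearest pair of sites lay within 5 bp, in 23 it was 6 to 75 bp apart, and in 46 over 1000 bp. NetB, which encodes the axon guidance cue Netrin-B, illustrates the second class and was chosen after its values were seen: its single site of replicate 1 lay 29595 bp from the 5' end and the nearest of its 5 sites of replicate 2 at 29602 bp.

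The strongest transcribed host of a shared site was mod(mdg4), whose products bind chromatin and insulators and which is known in the fly for joining exons from opposite strands by trans-splicing. Its row (3R, 17200782 to 17203121, plus strand, dm3) stood at 188 FPKM (Sample3) and 327 FPKM (Sample4). With 1 transcript per gene in the table, whether a start on the minus strand is antisense to the whole gene cannot be told. The site, at 17203119 on the minus strand in both lists, lay 2 bp inside the annotated 3' end of this row. A second shared site with this placement belonged to Sec22, a SNARE gene of vesicle transport (27.9 and 23.4 FPKM), with its site at 702231 on X, also 2 bp from the 3' end; it was chosen after its values were seen. Karl, a lipocalin gene, followed in host level with 90.6 and 93.2 FPKM and had its site 0.699 kb inside the gene, at 11683576 on X in both lists.

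Over all shared sites, 32 of 56 (57.1%, 43.2 to 70.3%) lay in the first 50% of the host. In chic, the profilin gene that supplies actin monomers (2L, minus strand), the site was at 5978668 in both lists, 30.5% along the span, and the host had 70.1 and 107 FPKM. Pp1-87B, a catalytic subunit of protein phosphatase 1, had 53.0 and 67.9 FPKM and its site 55.2% along the gene. The lipophorin receptor gene LpR2 (51.6 and 52.9 FPKM) and eff, a ubiquitin-conjugating enzyme gene (37.5 and 66.2 FPKM), had their sites 9.50% and 16.1% along. In frc, a nucleotide sugar transporter gene (54.8 and 46.2 FPKM), the site lay at 82.7%.

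In zfh2, a zinc finger homeodomain gene of chromosome 4 (42.8 and 43.7 FPKM), both lists had the site at 538035, 15.6 kb from the 5' end of a gene of 36.6 kb. Kdm2, a histone demethylase gene, had 43.5 and 33.0 FPKM and its site at 43.7% of the span. The HMG box gene HmgZ had 31.4 and 39.6 FPKM with the site at 25.6%, and Ssdp, a cofactor of transcription, 27.4 and 40.7 FPKM with sites 5 bp apart at 12.8%. The remaining hosts among the 15, CG17278, CG18659, CG3940 and CG43444, ranged in mean from 31.4 to 77.5 FPKM, with sites 8.36% to 23.8% along the gene.

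Shared sites also occurred in hosts with hardly any GRO-seq signal. The lowest host was sals, which acts on sarcomere length in muscle, at 0.022 and 0.030 FPKM, with its site 245 bp from the 3' end. Cht7, a chitinase gene, had 0.067 and 0.025 FPKM and its site at 66.3% of the span, and CR40640, a ribosomal RNA row on unplaced sequence whose level is uncertain as that of a multicopy gene, had 0.069 and 0.042 FPKM. By span, the shared sites ranged from a host of 897 bp (CR44264) and of 1388 bp (CG13405) and 1414 bp (CG18765) to AGO3, an Argonaute gene of the piRNA pathway, with 134 kb. Longer still were 2 rows on unplaced sequence, Su(Ste):CR42406 and CR41602, listed at 653 and 3784 kb. Whether such spans are those of single genes was not examined, so sites in them may not lie in a gene body. Outside X, 2L, 2R, 3L, 3R and 4 there were 24 antisense sites in replicate 1 and 57 in replicate 2. The 55 hosts of shared sites had a median of 8.41 FPKM for Sample3, one of 9.42 for Sample4, and 43 (78.2%) had at least 1 FPKM in both, against 55.1% of rows with open sequence and 50.7% of all rows.

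**Figure D2:**
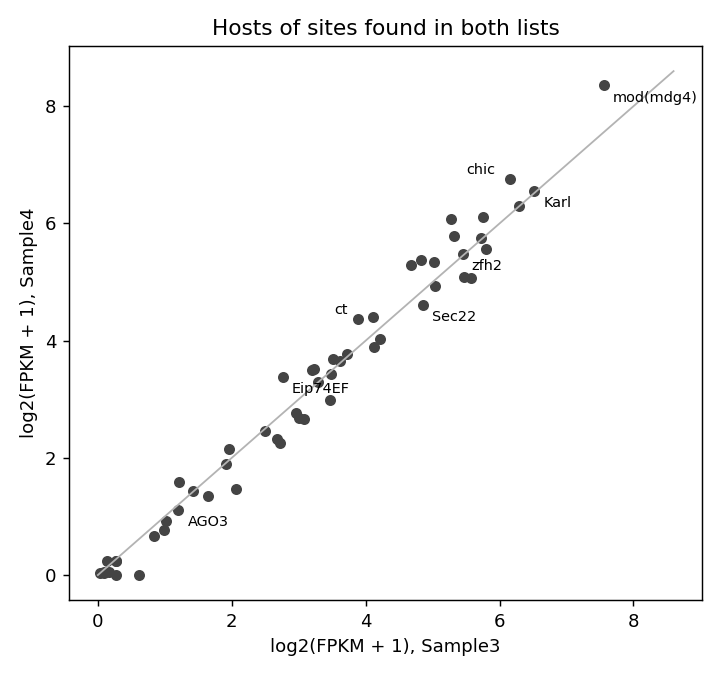
GRO-seq level of the 55 hosts of antisense sites found in both lists, as log2(FPKM + 1) in Sample3 (horizontal) and Sample4 (vertical); each point is a host and the line marks equal values. Hosts range from near 0 to mod(mdg4) at 188 and 327 FPKM, and lie close to the line.

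Antisense sites were densest at the 5' end of the host in replicate 1 and at its 3' end in replicate 2, where the 5' end came next. Position was set against open sequence, the opposite-strand bases that the rule leaves available, on X, 2L, 2R, 3L, 3R and 4. Such densities, here and below, were taken over the open sequence of all rows concerned, whether or not they held a site. Bases within 500 bp of a 5' end are closed, so rows under 5 kb have none open in the first 10%. The first and last 10% therefore rest on different sets of rows, with 3.50 and 6.27 megabases open to antisense sites. In the first 10% of the span there were 19.4 sites per megabase in replicate 1 and 18.3 in replicate 2, and between 50 and 60% of it 5.31 and 7.03. In the last 10% the densities were 6.23 in replicate 1 and 23.5 in replicate 2. The first 50% of the host held 63.5% (59.1 to 67.7%) of the antisense sites of replicate 1 and 47.9% (44.2 to 51.6%) of those of replicate 2. The lists also differed in the share of all sites within 500 bp of a 5' end, 71.1% and 34.3%. How far this bears on the positions was not tested.

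Sense gene-body sites were also densest near the 5' end in replicate 1 and at the 3' end in replicate 2. In replicate 1, 60.3% lay in the first 50% of the host (odds ratio 1.14 for antisense over sense, exact adjusted p = 0.384), and in the leading 50% of the list in file order the direction turned (59.6% for antisense, 74.1% for sense, adjusted p = 0.110). In replicate 2 it was 42.4% (odds ratio 1.25, exact adjusted p = 0.011), which did not pass among sites over 1000 bp from 5' ends (adjusted p = 0.235). The sense density in replicate 2 was also highest in the last 10%, at 106 sites per megabase against 32.4 between 70 and 80% of the span.

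**Figure D3:**
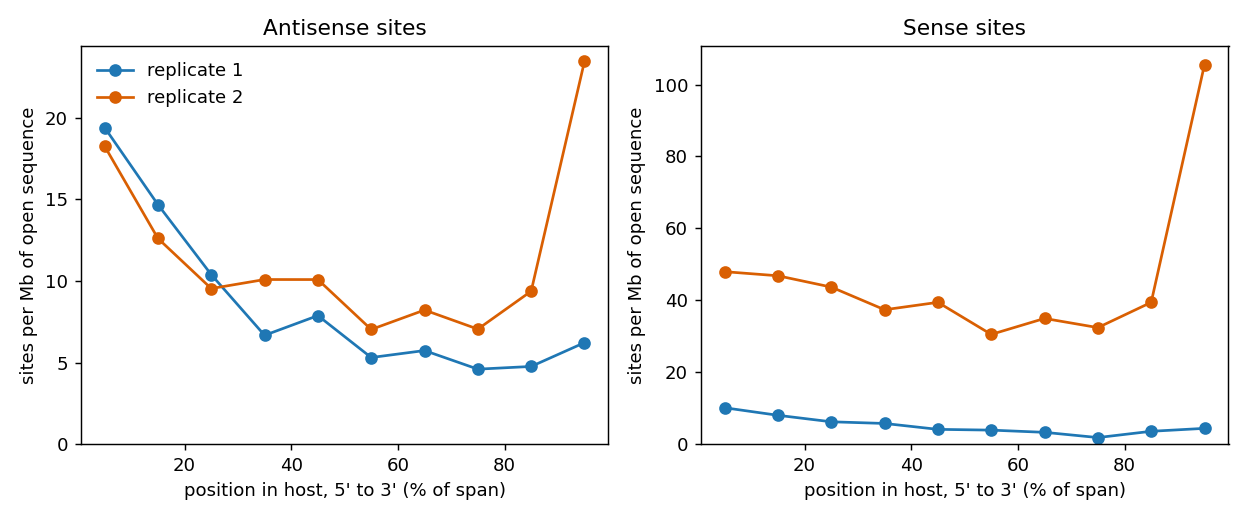
Sites per megabase of open sequence of all rows (vertical) in successive 10% steps of the row from 5' to 3' (horizontal). Panels show antisense (left) and sense (right) gene-body sites of each list, and the vertical scales differ. Antisense densities fall from 19.4 and 18.3 in the first step, and in replicate 2 return to 23.5 in the last. Rows under 5 kb have no open sequence in the first step.

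The 3' end zone was defined as the last 500 bp of the host. It held 50 antisense sites (10.1%, 7.62 to 13.2%) in replicate 1 and 165 (22.9%, 19.8 to 26.1%) in replicate 2. Per megabase of open sequence of all rows this was 9.85 against 7.73 in the rest of the span for replicate 1, and 32.5 against 9.22 for replicate 2. At rows where another gene ended on the opposite strand within 1000 bp beyond the 3' end, the zone had 55.1 sites per megabase in replicate 2. At other rows it had 23.6. In replicate 1 the values were 8.38 and 10.4, so that the order differed between the lists, which was not tested. Hosts of 3' end sites had median spans of 2.17 and 2.58 kb, near the 2.09 kb of all rows with open sequence and under the 9.15 and 8.08 kb of all hosts.

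Near the 5' end, 204 sites of replicate 1 (41.4%) and 214 of replicate 2 (29.6%) lay more than 500 and up to 2000 bp inside the host. Their hosts for replicate 1 had a Sample3 median of 18.1 FPKM and a Sample4 median of 16.0, and 10.2 and 9.50 FPKM for replicate 2. The nearest 5' end in the gene table was the host's own for 66.5% and 58.0% of the sites. It was that of a gene on the site's own strand for 16.0% and 25.2%. A same-strand gene start lay up to 2000 bp downstream of 15.6% and 10.9% of the sites, and up to 5000 bp downstream of 35.9% and 30.6%. The members nearest to the 500 bp limit were sites in CG17265 and CR44321 at 501 and 507 bp in replicate 1, and in CG31673 and wgn at 504 and 505 bp in replicate 2. The sites just outside it were in mask and rdgA at 500 and 496 bp, and in CG31320 and cyr at 496 and 494 bp.

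Most hosts were transcribed. Whether the FPKM were counted by strand is not stated, so the signal is taken as that of the host's own strand without proof. Hosts of replicate 1 had a Sample3 median of 13.9 FPKM (quartiles 5.64 and 27.0) and a Sample4 median of 12.1 (4.96 and 27.4), and hosts of replicate 2 had 10.3 (3.23 and 21.7) and 9.52 (2.57 and 21.6). Over all rows the medians were 1.98 and 1.38 FPKM, and over rows with open sequence 3.62 and 2.62. At least 1 FPKM in both libraries was reached by 375 of 434 hosts (86.4%) and 433 of 535 (80.9%), beside the 55.1% of rows with open sequence. Hosts were also longer, with median spans of 9.15 and 8.08 kb against 2.09 kb. How far length accounts for the levels was not tested. Long rows hold more open sequence. Per megabase of it, rows under 5 kb had 9.81 sites in replicate 1 and 16.0 in replicate 2. Rows of 5 to under 20 kb had 11.1 and 12.2, and rows of 20 to under 100 kb had 5.30 and 7.53. Rows over 100 kb had 3.21 and 12.0, from 15 and 56 sites. Only 2 and 7 hosts were listed at 0 in both libraries.

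The density of antisense sites was higher in each higher class of row FPKM, in both lists. All rows of a class counted, hosts or not. Counted by row, the share of hosts did not rise at the highest level in replicate 1. Of 4235 rows with open sequence at 10 to under 100 FPKM, 247 were hosts in replicate 1 (5.83%) and 255 in replicate 2 (6.02%). Of 211 such rows at 100 FPKM and over, 11 (5.21%) and 13 (6.16%) were hosts. These 211 rows held 0.407 megabases of open sequence, against 23.7 in 2865 rows above 0 and under 1 FPKM. How far row length bears on the densities by level was not tested. Per megabase of open sequence, rows above 0 and under 1 FPKM had 1.99 sites in replicate 1 and 3.89 in replicate 2. Rows of 1 to under 10 FPKM had 7.97 and 15.04, and rows of 10 to under 100 FPKM had 17.3 and 19.2. At 100 FPKM and over the values were 29.5 and 36.9, from 12 and 15 sites. Sense gene-body sites of replicate 2 were also denser at higher levels up to 100 FPKM, with 2.21, 69.6 and 95.2 sites per megabase in the same first 3 classes and 70.3 at 100 and over. Those of replicate 1 had 2.21 under 1 FPKM, 7.46 from 1 to under 10 FPKM, 7.14 from 10 to under 100, and 0 sites in the 0.412 megabases at 100 and over, where a count of 0 allows up to 7.28 per megabase. A call required 4-fold over GRO-seq at the site, and the effect of this filter on either strand was not tested.

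**Figure D4:**
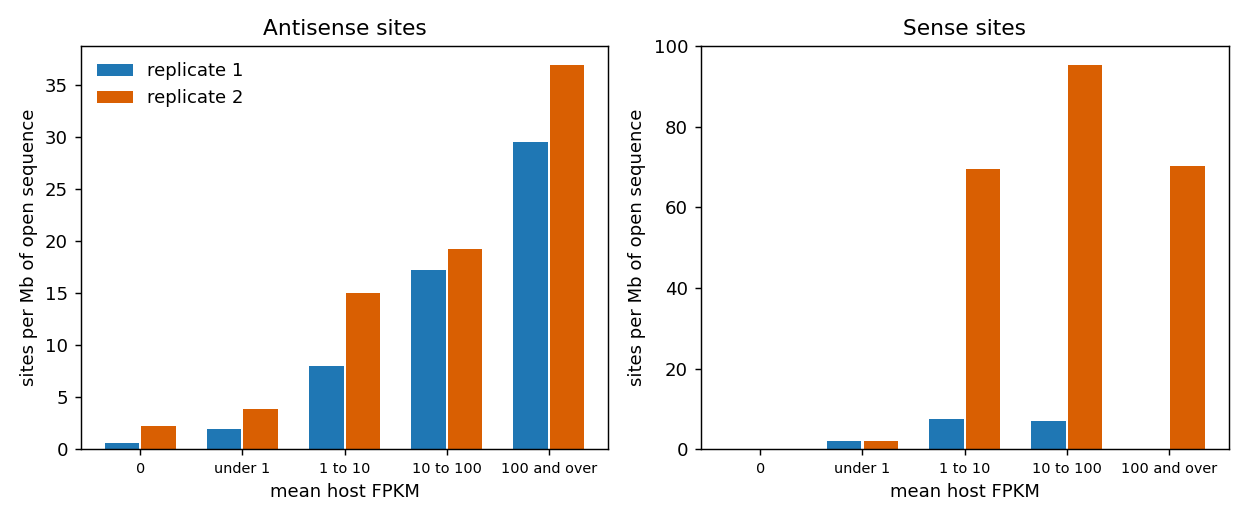
Sites per megabase of open sequence of all rows in a class (bars, vertical) by mean GRO-seq level of the row in FPKM (horizontal classes). Panels show antisense (left) and sense (right) gene-body sites of each list, and the vertical scales differ. Antisense densities run from 0.632 and 2.21 at rows listed at 0 to 29.5 and 36.9 at rows of 100 FPKM and over.

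The share of hosts with a called start of their own was near that of other transcribed genes. Among hosts with at least 1 FPKM in both libraries, 184 (49.1%) had a same-strand site within 100 bp of their 5' end in replicate 1, beside 48% of rows with open sequence at that level. For hosts and starts of replicate 2 it was 129 (29.8%), beside 28.9%. By type, 451 of the 493 sites of replicate 1 and 650 of the 722 of replicate 2 lay in protein-coding genes. Noncoding rows had 15.1 and 20.1 sites per megabase of open sequence, against 7.68 and 10.9 for protein-coding rows. In replicate 2, 13 of the 36 sites in noncoding rows lay in CR44997 alone. Per gene the order was the opposite, with 2.13% and 1.82% of noncoding rows as hosts against 3.28% and 4.09% of protein-coding rows. Densities ranged from 6.59 to 8.64 over X, 2L, 2R, 3L and 3R in replicate 1 and from 10.2 to 12.3 in replicate 2; the small chromosome 4 stood at 11.4 and 22.8, from 9 and 18 sites.

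A divergent partner, a called site on the host's strand up to 500 bp upstream of the antisense site, was found for 20 antisense sites (4.06%) in replicate 1 and 45 (6.23%) in replicate 2. The partner was itself a sense gene-body site for 19 of the 20 and 41 of the 45, so the sense class holds nearly the same pairs and is not compared here. Sites outside all rows had a divergent partner more often in replicate 1 (8.78%, adjusted p = 0.0012, Fisher's exact test) and less often in replicate 2 (4.14%, adjusted p = 0.032, Fisher's exact test). Each site was scored on its own, so a pair lying wholly outside rows counted at both its sites. Antisense sites had a partner of their own class in 0 of 20 and 2 of 45 cases. The test treats paired sites as independent, so its p-values do not compare like units. The difference in replicate 2 did not pass with limits of 300 bp from 5' ends (exact adjusted p = 0.136) or 1000 bp to the partner (adjusted p = 0.155), nor, as in replicate 1, in the leading 50% of the list in file order (adjusted p = 0.451 and 0.433). Among shared antisense sites, that of mtd, a gene of oxidation resistance, had a partner 146 bp away in both lists, and that of CG30438 had partners 120 bp away in replicate 1 and 361 bp in replicate 2; both were chosen after their values were seen.

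A few long hosts held many antisense sites, mostly in a single list. AGO3 (3L, 23549025 to 23682740, plus strand) had 19 sites in replicate 2 and 3 in replicate 1, of which 1 was shared, at 1.30 and 1.17 FPKM. Its sites of replicate 2 ran from 4.40 to 118 kb from the 5' end with a median gap of 3.54 kb, 143 per megabase of its open sequence, and 9 sense sites were called in the gene beside them. The noncoding gene CR44997 (X, 22059160 to 22199518, plus strand) had 13 sites in replicate 2 and 1 in replicate 1, at 1.03 and 1.13 FPKM. Gprk1, a G protein-coupled receptor kinase gene at the base of 2R (209800 to 358565, minus strand), had 8 in replicate 2 and 0 in replicate 1, at 2.20 and 1.90 FPKM.

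The cut gene ct, which encodes a homeodomain factor, had 9 antisense sites in replicate 2 between 7.27 and 42.4 kb, and a single site in replicate 1 that matched the most distal of these within 3 bp. The level of ct was 13.8 and 19.6 FPKM. In replicate 1 the leading hosts were EcR, the ecdysone receptor gene, with 4 sites between 12.6 and 25.7 kb from its 5' end (10.0 and 10.3 FPKM), and the noncoding gene CR44206 with 4 (24.2 and 23.8 FPKM). EcR had 0 antisense sites in replicate 2, and CR44206 had 2. Gprk2, a second receptor kinase gene, had 3 in replicate 1 and 0 in replicate 2 (21.0 and 24.4 FPKM). CR41602, a ribosomal RNA row listed at 3784 kb on unplaced sequence, had 3 and 7. Its span was not examined, and its FPKM of 1.32 and 2.00 are uncertain as those of a multicopy gene.

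**Figure D5:**
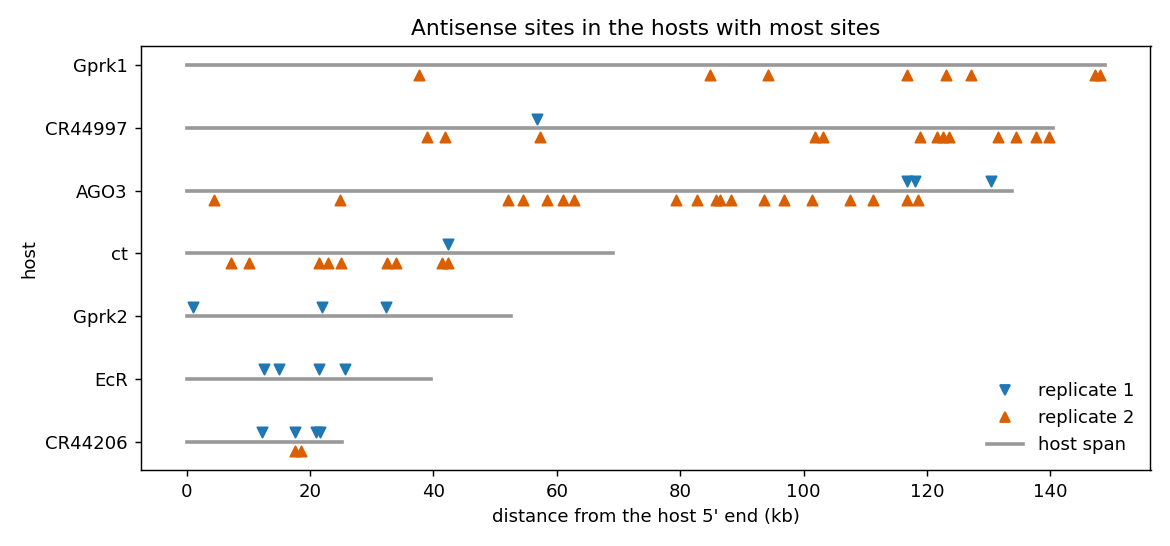
Antisense sites (triangles, pointing down for replicate 1 and up for replicate 2) by distance from the host 5' end in kb (horizontal), for the hosts with most sites except CR41602, whose span of 3784 kb is off this scale; grey lines are host spans. Sites of AGO3, CR44997, Gprk1 and ct come mostly from replicate 2, those of EcR and Gprk2 from replicate 1.

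Among 6 lists of host genes, those of the ecdysone response, the steroid pathway of moulting and metamorphosis, had the highest share of hosts in replicate 1, 6 of 16 with open sequence (37.5%), beside 3.31% of all such rows. In replicate 2 it was 3 of 16 (18.8%), beside 4.08%. Among rows of 20 to under 100 kb with open sequence on X, 2L, 2R, 3L, 3R and 4, 14.4% were hosts in replicate 1 and 16.1% in replicate 2. Ecdysone genes were also the longest, with a median span of 21.2 kb against 2.09 kb over all rows with open sequence, and 4 of their 10 sites of replicate 1 lay in EcR. Per megabase they had 21.7 sites against 6.73 in replicate 1 and 6.51 against 9.86 in replicate 2. By this measure chromatin genes (24.7) and blood and immune genes (22.1) stood above them in replicate 1. Besides EcR, the hosts in replicate 1 were Eip74EF, an ETS factor gene, with 2 sites (5.77 and 9.42 FPKM), and Eip63E, crol, ftz-f1 and Hr39 with 1 each. In replicate 2 the hosts were Eip74EF, Hr4 and Eip78C, with 1 site each. The Eip74EF site at 17563651 on 3L was called in both lists, 36.9% along the gene.

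Chromatin genes had 4 hosts of 29 in replicate 1 (13.8%) and 3 in replicate 2 (10.3%), with 16.5 sites per megabase in replicate 2, led by osa, a subunit of the Brahma remodelling complex, with 2 sites in each list, none of them within 5 bp of one in the other (25.0 and 44.0 FPKM). The chromatin hosts of both lists include mod(mdg4), whose site may not be antisense to the whole gene. Signalling genes had 4 of 35 (11.4%) and 8.95 sites per megabase in each list. Of these, foxo, a factor downstream of insulin, had 1 site in replicate 1 and 2 in replicate 2 (13.9 and 11.7 FPKM), and N, the Notch receptor gene, had 2 in replicate 1 (8.03 and 7.04 FPKM). Blood and immune regulators had 3 of 18 in replicate 1 (16.7%), namely Socs36E, an inhibitor of JAK-STAT signalling, with 2 sites (143 and 127 FPKM), Stat92E and srp, the hemocyte GATA factor, with 1 each. In replicate 2 there was 1 (5.56%, 5.53 sites per megabase), Tl. Cytoskeleton and adhesion genes had 5 of 28 (17.9%) and 1 of 28 (3.57%), with 13.1 and 2.62 sites per megabase and chic in both. Of 21 hemocyte matrix and surface genes, 1 was a host in each list (4.76%, 4.43 sites per megabase): mys, an integrin subunit gene (76.0 and 77.9 FPKM), in replicate 1 and Pxn in replicate 2. Over all rows with open sequence the values were 3.31% and 6.73 per megabase in replicate 1, and 4.08% and 9.86 in replicate 2. Several shares, such as that of the hemocyte genes in both lists, were near these, and the lists were not matched on length or level. Apart from the ecdysone genes, the lists had median spans of 5.12 to 8.70 kb. Among rows of 5 to under 20 kb on X, 2L, 2R, 3L, 3R and 4, 8.28% were hosts in replicate 1 and 8.42% in replicate 2.

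Few hosts overlapped an antisense RNA gene added in the later Release 6 annotation, which was matched by gene identifier. This held for 9 of 422 matched hosts of replicate 1 (2.13%) and 5 of 517 of replicate 2 (0.967%), beside 1.24% of matched rows with open sequence. Of the hosts of shared sites it was 1 of 52, CG42671. The strand of the later genes and their distance to the sites were not used. Of 503 antisense RNA genes of Release 6, 150 were absent from the gene table. Sites inside a same-strand row were excluded by the rule, so the overlap says nothing of antisense RNA genes already in the table.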

How the data were processed

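Start sites were called by the authors per library with HOMER, per the file headers: peaks of 150 bp, at least 300 bp apart, at an FDR of 0.001, with 4-fold over GRO-seq and 4-fold over 1000 bp around. The deposited score column is constant, so sites had no score. FPKM values were deposited by the authors for 1 transcript per gene. Tools listed without a role, per the submitters' processing notes, are HOMER 4.7, Bowtie2 2.1.0 and CASAVA 1.8.2; the build is dm3.

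Strand handling of the FPKM is not stated. Rows nested in other rows of at least 10 FPKM were under 1 FPKM in 142 of 214 cases (66.4%) on the opposite strand. On the same strand this held for 6 of 440 (1.36%). A site is the centre of its interval of 151 bp. With several host rows the shortest was used. Low FPKM values were whole multiples of a read (tolerance 0.1 read) in 100% and 99.9% of cases, giving totals of 6572460 and 2474820 reads. Exons and introns were not used here. Members and lists were chosen with earlier results of these data known. Named hosts are those of shared sites (15 highest and 3 lowest in mean FPKM, 3 longest, 3 shortest), the 5 with most sites per list, hosts with at least 3 shared sites (none occurred), sites next to the distance limit, and the leading host of each gene list. Hosts named outside this rule, the further members of gene lists included, were chosen after their values were seen. Gene lists matched 149 of 154 symbols. Scripts were tested on simulated data. Python 3.11.15, numpy 2.4.6, scipy 1.17.1 and pandas 2.3.3 were used. Alternatives varied distances, host choice, rows, libraries, FPKM threshold, chromosomes and file order.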

Additional observations from a re-analysis of the deposited data

How the results depend on the processing

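Over 18 alternatives, 142 values were recomputed. Of these, 112 kept their side of the threshold, stayed within their spread or, for counts of sites, within a set fold change. They include the site count of replicate 1 at over 1000 bp from 5' ends, 359 against 493. A further 20 values moved, 8 lost their call and 2 reversed. The cause was not tested except where a definition or number of sites changed. With over 300 bp from 5' ends, members made up 8.61% and 8.48% of the lists, 13.2% of replicate 1 lay near 3' ends, and divergent partners in replicate 2 stood at 6.03% against 4.55% outside rows. With over 1000 bp these shares of the lists were 5.29% and 6.43%, the 3' share of replicate 1 was 7.24%, its median host mean 12.2 FPKM, the share in both lists 7.28% against 10.1% outside rows, and the share in the first 50% of the host 45.5% against 42.6% for sense sites, both in replicate 2. Without rows over 100000 bp, replicate 2 had 6.88% members, 26.2% near 3' ends and 7.89% in both lists against 10.6% outside rows. Partners within 1000 bp gave 9.70% against 7.89% in replicate 2. The 3' share was 5.07% and 14.96% within 200 bp, and 15.4% and 28.8% within 1000 bp. Without Sample3, host medians were 12.1 and 9.52 FPKM. At 2 FPKM, 82.3% and 75.9% of hosts passed. With each site counted once, replicate 2 had a median of 8.81 FPKM. In the leading 50% of each list in file order, which has fewer sites, replicate 1 had 31.6% in both lists against 46.4% for sense sites, and medians and passing hosts of 9.27 FPKM and 78.6%. There the first 50% of the host held 59.6% against 74.1% (reversed, adjusted p = 0.110, Fisher's exact test), and partners stood at 1.75% against 0.893% for sense sites (reversed, adjusted p = 1, Fisher's exact test, though these classes share most pairs) and 6.01% outside rows; in replicate 2 it was 4.74% against 3.54%. No paired analysis was possible because the GRO-seq columns carry no replicate number and no test compared samples. The 5'GRO-seq libraries differ in depth, and its part in which sites were called in a single list was not tested.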

Other observations

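Antisense gene-body sites stood late in the deposited order of both lists, whose meaning is not given in the sources used here. The leading 50% of the list held 11.6% of them in replicate 1 and 26.3% in replicate 2. Their median place was at 82.2% and 70.1% of the list, against 42.9% and 29.3% for sites within 500 bp of a 5' end.

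With a wider match of 75 bp, 79 antisense sites of replicate 1 had a partner in replicate 2, and 80 the other way. A convergent partner, a called site on the host's strand up to 500 bp downstream, was found for 2.43% of the antisense sites of replicate 1 and 8.03% of those of replicate 2.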
